A study of Equus caballus with 20 samples.

Results

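The comparison described here set the gluteus medius of each horse with recurrent exertional rhabdomyolysis (RER) against the longissimus lumborum of the same horse. RER is a muscle disease in which exercise brings on repeated episodes of stiffness and muscle fibre breakdown. For every horse and muscle the deposited values are log2 ratios of that animal's RNA to pooled RNA of control horses, always of the matching muscle. The gluteus ratio minus the longissimus ratio of one horse is called the difference here: above 0 means a higher RER-to-pool ratio in gluteus, below 0 a higher one in longissimus. All ratios and differences are given on the log2 scale, where a difference of 1 is a 2-fold gap between both ratios. Features stand for a gene symbol, with its probes averaged, or for a single probe without a symbol. Of 22988 features made from 24493 probes, 10063 had differences in at least 4 of the 5 horses and were tested. Of these, 5844 carried a gene symbol and 6275 had all 5 differences.

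The series covers 15 French Trotters, 10 controls and 5 RER horses with high plasma activity of muscle enzymes, all biopsied in both muscles. Gluteus RNA of each RER horse was compared with the gluteus pool and longissimus RNA with the longissimus pool, on 2 arrays with the dyes swapped, which gives 20 arrays. Age, sex and treatment of the animals are not given in the sources used here, and no gene defect or drug is named for either group. Because each muscle has its own pool, expression that differs between gluteus and longissimus in all horses cancels out of the difference. Each pool entered as 1 control sample, so the spread among control animals is in no test. All 5 differences of a feature share both pools.

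The gluteus medius is the main propulsive muscle of the hindquarter, and the longissimus lumborum runs along the back and stiffens the trunk. In both, a nerve impulse opens the ryanodine receptor of the sarcoplasmic reticulum, calcium binds troponin, and the sarcoplasmic reticulum calcium pump takes calcium back up. Glycogen, fatty acids and phosphocreatine supply the ATP that both contraction and calcium uptake consume. Energy supply and cytoplasmic calcium are the 2 themes that the study's title gives for RER, and the lists below follow them. The deposited ratios hold no expression level, so the muscle labels could not be checked against muscle markers.

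The direction of the ratios is not stated. RER over pool is the likely reading, since the RER sample occupies channel 1 throughout, but arrays of gluteus from horses 2 and 4 with RER RNA in Cy3 correlated at -0.341. If all signs were turned, every difference would keep its size and the counts above and below 0 would change places. The arrays fell into densely measured ones with at least 20000 values and sparsely measured ones. Horses 1 and 2 were dense in both muscles, horse 3 was dense in gluteus only, and horses 4 and 5 were sparse in both. Dye-swapped arrays of one sample correlated between -0.322 and 0.849, and 4 of the 10 pairs lay below 0. These were gluteus of horses 2 and 3 and longissimus of horses 1 and 2.

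No feature passed an adjusted p of 0.05 in the limma test of the 5 within-horse differences with Benjamini-Hochberg adjustment, 0% of 10063, and adjusted values started at 0.943. Before adjustment, with p under 0.05, 187 features lay above 0, 1.86% of those tested, and 227 below 0, 2.26%, together 414 where 503 would be expected by chance alone. Each alternative analysis also gave 0 features, with between 16 and 1087 at an unadjusted p under 0.05. The median difference over all tested features was 0.0016 and 50.4% lay above 0. Among features with all 5 differences, 212 were above 0 in every horse, 3.38%, and 193 were below 0 in every horse, 3.08%. With 5 horses an exact sign-flip test of a single gene cannot go below a two-sided p of 0.0625. The median standard error of a difference was 0.141. For 91.5% of tested features the 95% interval of the difference lay within 2-fold in either direction, and for 67.2% within 1.5-fold. These intervals describe the spread among horses of dye-averaged values and have no separate term for disagreement between dyes. Dye pairs correlated from -0.322 to 0.849, and 3706 tested features lacked horse 4, the widest horse. The shares are therefore no bound on the true differences.

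**Figure D1:**
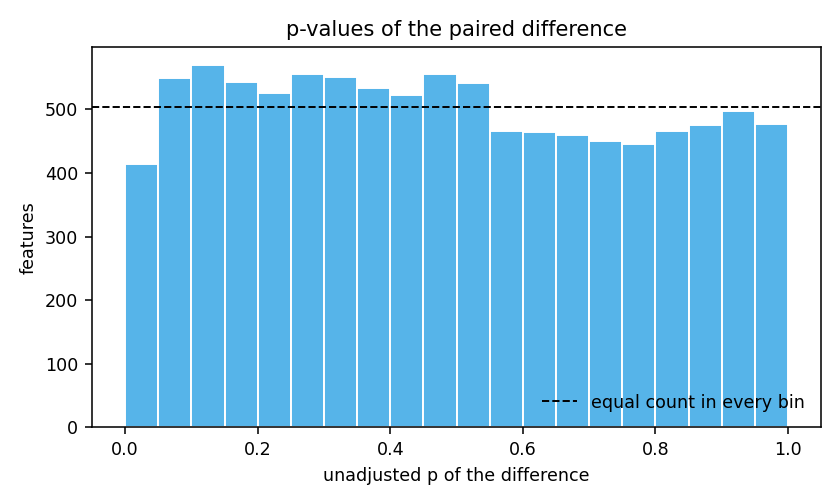
Number of tested features (y axis) by unadjusted limma p of the gluteus minus longissimus difference (x axis, bins of 0.05); the dashed line is an equal count in every bin. The lowest bin holds 414 features, below the line at 503.

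Sumo2, Eif4h and Eif4a2 led the genes with the smallest p and a difference below 0 in every horse. The rule that chose these genes asked for one sign in all 5 horses, so that sign is no finding. Sumo2, a small ubiquitin-like protein that is attached to other proteins, had gluteus ratios of -0.51, -0.53, -0.67, 0.25 and -0.17, against longissimus ratios of 0.12, 0.26, -0.059, 1.26 and 0.29 in horses 1 to 5. Its differences were -0.62, -0.78, -0.61, -1.01 and -0.46 in horses 1 to 5. Horse 4 had the highest ratio in both muscles, and the ranges of both muscles overlapped. The mean difference was -0.70 ± 0.11 (SE, n = 5 horses), a gluteus ratio 0.617 times that of longissimus, with a limma adjusted p of 0.943. Eif4h, which stimulates the helicase that unwinds mRNA for translation, had gluteus ratios of -0.45, -0.24, -0.44, -0.47 and -0.43, against longissimus ratios of 0.15, 0.29, 0.055, 0.35 and -0.0071 in horses 1 to 5. Its 5 gluteus values all lay below its 5 longissimus values, and the mean difference was -0.57 ± 0.10 (SE, n = 5 horses), adjusted p = 0.943 (limma). Eif4a2, a form of that helicase, had differences of -0.98, -0.80, -0.38, -0.46 and -0.73 in horses 1 to 5, with a mean of -0.67 ± 0.12. Eif4b, another cofactor of the helicase, had differences of -0.022, -0.34, -0.61, -0.59 and -0.37 in horses 1 to 5 and a mean of -0.38 ± 0.12. Horse 1 was nearest 0 for Eif4b and farthest from it for Eif4a2.

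The nuclear transport genes Cse1l and Ranbp2 and the RNA helicase gene Dhx15 were in the same set of 10. Cse1l, the exporter that returns importin alpha to the cytoplasm, had differences of -0.59, -0.41, -0.43, -0.48 and -0.31 in horses 1 to 5, mean -0.44 ± 0.091. Ranbp2, a nuclear pore protein that also acts as a ligase for SUMO proteins such as Sumo2, had differences of -0.15, -0.76, -0.68, -0.86 and -0.59 in horses 1 to 5, mean -0.61 ± 0.13. Dhx15, a helicase that takes apart spliceosomes, had differences of -0.23, -0.67, -0.71, -0.94 and -0.23 in horses 1 to 5, mean -0.56 ± 0.14. For Ranbp2 horse 1 stood nearest 0, and for Dhx15 horses 1 and 5 did.

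**Figure D2:**
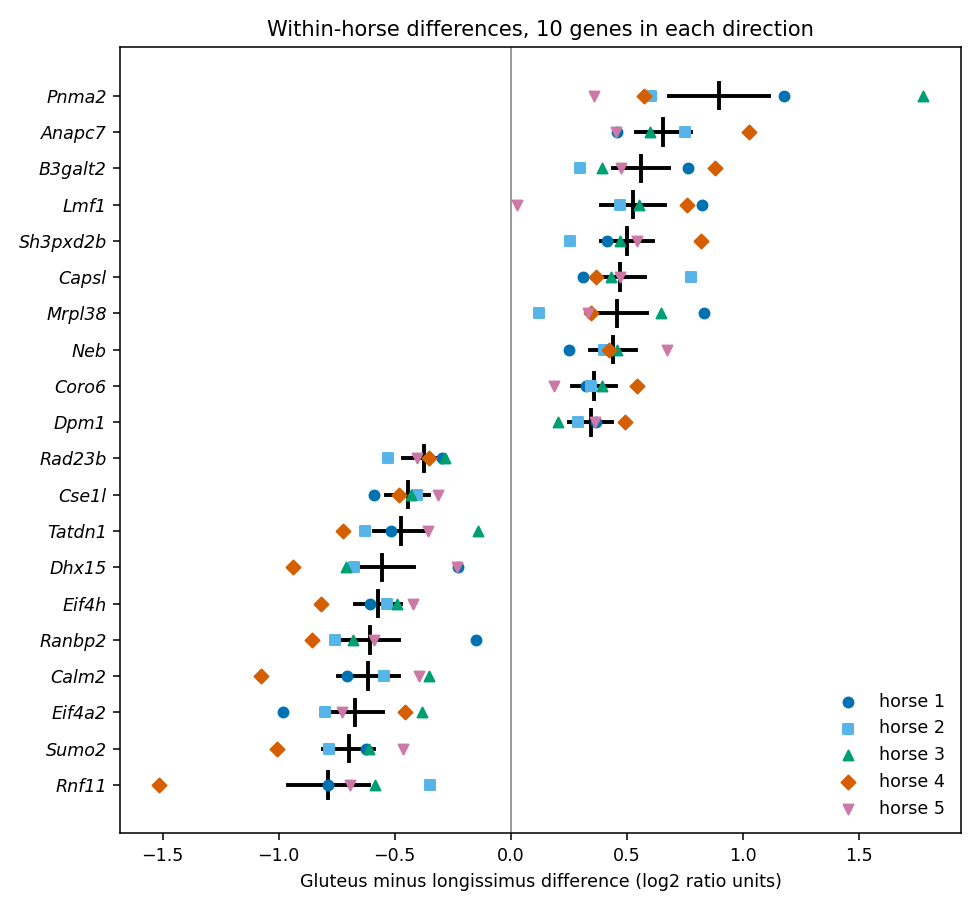
Gluteus minus longissimus difference (x axis, log2 ratio units) of the 10 genes above and the 10 below 0 named by the rule; symbols are the 5 horses, the vertical tick is the mean and the horizontal bar its standard error. Every point lies on one side of 0 by the rule that chose the genes, and horse 4 is the farthest from 0 for genes such as Rnf11 at -1.52.

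Cytosolic ribosomal proteins, the protein subunits of the ribosomes that translate nuclear mRNAs, had more members below than above 0. Of 77 on the array 62 were tested, of which 36 had a mean below 0 and 26 one above it, and the median was -0.10 beside 0.0016 for all features. At an unadjusted p under 0.05, 11 of 62 lay below 0, 17.7% against 2.26% of all features, and 0 above. Of 56 members with all 5 differences 7 were below 0 in every horse, 12.5% against 3.08%. None passed the adjusted threshold. The list median was -0.0046, -0.41, -0.43, 0.012 and 0.070 in horses 1 to 5, so it was far below 0 in horses 2 and 3 and within 0.070 of it in the others. Over all probes, dye-swapped arrays of horse 2 correlated at -0.206 in gluteus and -0.322 in longissimus. Those of horse 3 correlated at -0.268 in gluteus and 0.452 in longissimus. In horses 2 and 3 the proteasome list was at -0.31 and -0.20 and the extracellular matrix list at -0.23 and -0.20, and the part of such lists in the ribosomal values was not tested. At an unadjusted p under 0.05, 4 of 63 members lay below 0 without horse 3, 6.35% against 1.48% of all features then tested. Without horse 2 they were 8 of 62, 12.9% against 1.11%, and without horse 4 they were 11 of 65, 16.9% against 3.2%. On Cy5 arrays they were 3 of 62, 4.84% against 1.66%, and in the densely measured horses 1 of 74, 1.35% against 1.82%. In the sparsely measured horses they were 0 of 57, against 0.549%. They were 0 of 62 both with no replicate block and with the Cy3 array turned in dye pairs that correlate below 0. Members of the list share libraries and many have near-identical copies in the genome, so they are not independent of each other.

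Rpl39 had gluteus ratios of -0.50, -0.31, -0.51, 0.40 and 0.25, against longissimus ratios of 0.20, 0.042, 0.021, 1.40 and 0.43 in horses 1 to 5. Horses 4 and 5 had ratios above 0 in both muscles, the other horses only in longissimus. Its mean difference was -0.55 ± 0.14 (SE, n = 5 horses), adjusted p = 0.943 (limma). The mean was -0.41 ± 0.11 for Rpl34, -0.36 ± 0.10 for Rps27, -0.47 ± 0.15 for Rps27a, -0.42 ± 0.13 for Rps25, -0.40 ± 0.12 for Rps24 and -0.41 ± 0.12 for Rpl23a, all below 0 in the 5 horses. The other end of the list was Rplp1, part of the stalk of the large subunit, with differences of 0.19, -0.29, -0.24, 4.39 and 0.25 in horses 1 to 5. Its mean of 0.86 ± 0.69 rested on horse 4, and without that horse it was -0.022.

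Initiation and elongation factors were split. Of 53 on the array 40 were tested, of which 25 lay above 0 and 15 below, with a median of 0.069, yet 6 (15% against 2.26%) were below 0 at an unadjusted p under 0.05 and 1 (2.5% against 1.86%) was above. Of 33 with 5 differences, 5 were below 0 in every horse, 15.2% against 3.08% of all features, and 1 above, 3.03% against 3.38%. The list median was -0.0070, -0.18, -0.075, 0.45 and -0.11 in horses 1 to 5. Horse 4 alone was above 0, and without it the median was -0.13. Without horse 3 those below 0 at an unadjusted p under 0.05 were 2 of 40, 5% against 1.48% of all features, and without horse 2 they were 3 of 40, 7.5% against 1.11%. They were 2 of 40 on Cy5 arrays, 5% against 1.66%, 2 of 40 with no replicate block, 5% against 0.944%, and 0 of 40 with the Cy3 array turned. Besides Eif4h, Eif4a2 and Eif4b, Eif3f, a subunit of initiation factor eIF3, had a mean of -0.23 ± 0.095. Eif4g2, a relative of the initiation scaffold, had one of -0.26 ± 0.11. Its 2 probes differed in size, with -0.034 over 4 horses and -0.56 over 5. Eif5b, which joins the ribosomal subunits, was the member above 0 in every horse, with differences of 0.26, 0.31, 0.57, 1.43 and 0.20 in horses 1 to 5. Of 44 mitochondrial ribosomal proteins, which serve translation inside mitochondria, 26 lay above and 18 below 0 with a median of 0.030. Mrpl38 among them had differences of 0.83, 0.12, 0.65, 0.35 and 0.33 in horses 1 to 5, mean 0.46 ± 0.13.

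**Figure D3:**
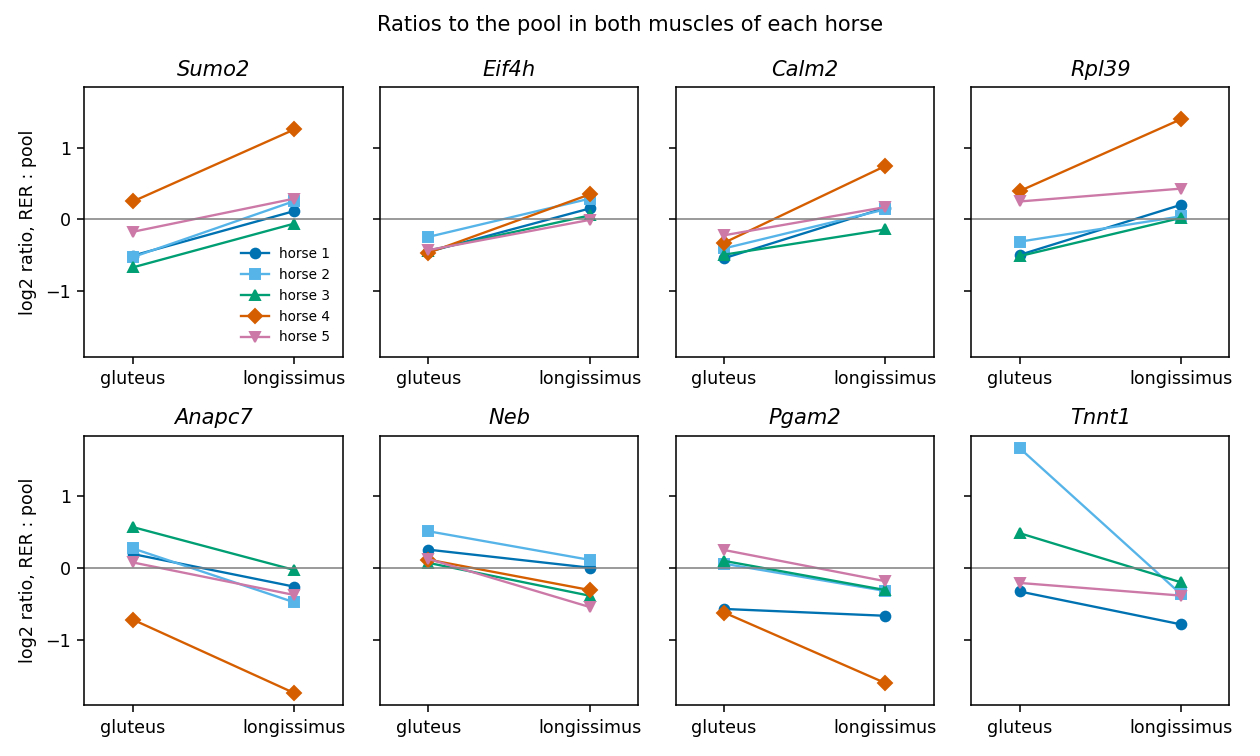
Log2 ratio of RER RNA to the control pool (y axis) in gluteus and longissimus (x axis) of each horse for 8 named genes; lines join both muscles of one horse and the grey line is equality with the pool. Lines run up to longissimus for Sumo2, Eif4h, Calm2 and Rpl39 and down for the others, and Tnnt1 has no pair in horse 4.

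Among the genes that read calcium signals, the calmodulin gene Calm2 was below 0 in every horse. Calmodulin binds calcium and regulates the ryanodine receptor, CaM kinases and calcineurin. Calm2 had gluteus ratios of -0.54, -0.41, -0.49, -0.33 and -0.22, against longissimus ratios of 0.16, 0.14, -0.14, 0.75 and 0.17 in horses 1 to 5. All 5 gluteus values lay below the longissimus values, and 4 of the 5 longissimus values were above 0. The mean difference was -0.61 ± 0.13 (SE, n = 5 horses), a ratio of 0.653, adjusted p = 0.943 (limma). Ppp3r1, the regulatory subunit of calcineurin, a phosphatase that calmodulin activates, had differences of -0.83, -0.67, -0.10 and -0.58 in horses 1, 2, 3 and 5, mean -0.54 ± 0.15. Camk2d, a calmodulin-dependent kinase, had differences of -1.57, 0.057, -0.17, -0.40 and -0.31 in horses 1 to 5, and horse 1 carried most of its mean of -0.48 ± 0.23. The muscle calpain Capn3, a calcium-dependent protease, was the upper end of the list with differences of 3.48, 0.057, -0.19, 2.89 and -0.36 in horses 1 to 5. Only horses 1 and 4 were far above 0, and the mean of 1.18 ± 0.64 had a 95% interval of -0.36 to 2.71. Of 17 tested members of this list, 10 were above and 7 below 0, and the median was 0.017. Calm2 and Ppp3r1 were the 2 below 0 at an unadjusted p under 0.05, 11.8% against 2.26% of all features. Leaving out horse 1 or horse 2 left 1 of 17, 5.88% against 2.5% and 1.11%.

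Genes of calcium release and uptake by the sarcoplasmic reticulum lay on both sides of 0. Of 33 on the array 18 were tested, and of these 10 lay above and 8 below 0, with a median of 0.057 and 0 at an unadjusted p under 0.05. The calcium pump of fast fibres, Atp2a1, had differences of -0.11, 0.063, -0.10, -0.072 and -0.017 in horses 1 to 5. Its mean was -0.046 ± 0.088 with an interval of -0.26 to 0.16, one of the tighter bounds among the genes named here, although its Cy3 arrays gave 0.20 and its Cy5 arrays -0.29. The release channel Ryr1 had differences of 1.13, 0.15, -1.04, 3.13 and -0.059 in horses 1 to 5, on both sides of 0, with a mean of 0.66 ± 0.55. Its 2 probes differed, with 2.61 in 1 horse and a mean of 0.40 over 5. Casq1, the calcium store protein of the reticulum, had differences of -0.34, -0.11, 0.23, 4.40 and -0.29 in horses 1 to 5, and Atp2a2, the pump of slow fibres and heart, -0.44, 0.45, -0.48, -2.29 and 0.19 in horses 1 to 5. For both, horse 4 set the mean, 0.78 ± 0.71 and -0.51 ± 0.38. Hrc, a histidine-rich calcium binding protein, had a mean of 0.31 ± 0.15. The calcium channel subunits Cacna2d1 and Cacng1 had means of -0.21 ± 0.11 and 0.49 ± 0.27. Of 8 genes of store-operated entry and surface transport 5 lay above 0, median 0.10, which was 0.019 over the same members and -0.011 over those then tested without horse 4, and -0.019 in the densely measured horses. In that list Slc8a3, a sodium-calcium exchanger, had a mean of 0.16 ± 0.10 and Orai2, a channel subunit, 0.21 ± 0.14.

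Nebulin, the Neb product that spans the thin filament, was above 0 in every horse. Its gluteus ratios were 0.26, 0.51, 0.071, 0.12 and 0.13 and its longissimus ratios 0.0038, 0.11, -0.39, -0.31 and -0.55 in horses 1 to 5. Gluteus ratios were all above 0, and longissimus ratios ran from at or just above 0 in horses 1 and 2 to below 0 in the others. The mean difference was 0.44 ± 0.10 (SE, n = 5 horses), a ratio of 1.36, adjusted p = 0.943 (limma). It averages 4 probes with means of 0.73, 0.28, 0.37 and 0.27, over 2, 4, 5 and 2 horses. Acta1, skeletal muscle actin, had differences of -0.58, -0.33, 0.19, -0.52 and -0.66 in horses 1 to 5 and a mean of -0.38 ± 0.14, but -1.35 on Cy3 and 0.59 on Cy5 arrays. Actc1, cardiac actin, which is also made in developing muscle, had differences of 0.23, -0.22, -1.24, 4.11 and 2.25 in horses 1 to 5. Its gluteus ratios were 0.79, -1.88, -1.13, 5.09 and 3.19 in horses 1 to 5, so horses 4 and 5 stood far above the pool and horses 2 and 3 below it. Myoz3, a Z-disc protein, had differences of 0.47, 0.15, 0.35 and 0.30 in horses 1, 2, 3 and 5, mean 0.32 ± 0.11. Of the 25 tested scaffold genes 14 lay above and 11 below 0, median 0.015, with 3 above (12% against 1.86% of all features) and 1 below (4% against 2.26%) at an unadjusted p under 0.05. Leaving out 1 horse in turn gave 1 to 3 above and 0 to 2 below. Of all features then tested, 114 of 10776 (without horse 3) to 363 of 11997 (without horse 4) lay above. Below lay 112 of 10069 (without horse 2) to 384 of 11997 (without horse 4).

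Sarcomere genes of slow fibres lay above 0 for 6 of 8 tested members (9 on the array), median 0.22. Those of fast fibres did so for 4 of 4 tested members (10 on the array), median 0.46. After quantile normalization 3 of the 4 lay below 0, Tnnt3 and Actn3 among them. In the densely measured horses 4 of 7 tested members lay below 0. Fewer cells of a type and less RNA per cell cannot be told apart in such biopsies. The slow troponin T gene Tnnt1 had gluteus ratios of -0.33, 1.68, 0.49 and -0.21 in horses 1, 2, 3 and 5, against longissimus ratios of -0.79, -0.37, -0.20 and -0.39 in horses 1, 2, 3 and 5. Horse 2 was far above the others in gluteus, and the mean difference was 0.84 ± 0.32 (SE, n = 4 horses), adjusted p = 0.943 (limma). Tnni1, slow troponin I, had differences of 0.18, 0.10, 0.21, 0.74 and 0.10 in horses 1 to 5, and Myl3, a slow light chain, 0.15, 0.33, 0.0080, 0.17 and 0.25 in horses 1 to 5. Both were above 0 in every horse, yet the Tnni1 mean was -0.047 on Cy5 arrays and that of Myl3 -0.038 on Cy3 arrays. The slow myosin heavy chain Myh7 had a mean of -0.31 ± 0.14, below 0 on Cy3 arrays and above 0 on Cy5 arrays. In the fast list the troponin genes Tnnc2 and Tnnt3 and the actinin gene Actn3 had differences in horse 4 of 5.00, 2.55 and 1.74. In the other horses those genes ranged from -0.60 to 0.76, and the list median without horse 4 was 0.070.

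Energy metabolism had members on both sides of 0 in every list. Of 18 glycolysis genes 12 lay above 0, median 0.10. That median was 0.0051 after quantile normalization and 0.183 without horse 3. Pgam2, muscle phosphoglycerate mutase, was above 0 in every horse with differences of 0.10, 0.38, 0.41, 0.99 and 0.44 in horses 1 to 5, mean 0.46 ± 0.14, and its ratios were lowest in horse 4 in both muscles. Of the enzymes that make and remove an activator of phosphofructokinase, Pfkfb2 had a mean of 0.42 ± 0.20 over 4 horses and Pfkfb1 one of 0.77 ± 0.47. Among 12 glycogen genes 6 lay above and 6 below, median 0.0028. Ugp2, which makes the glucose donor for glycogen, had a mean of 0.37 ± 0.17, though its probes disagreed, with -0.89 over 2 horses and 0.84 over 5. Pgm2, a phosphoglucomutase, had a mean of -0.39 ± 0.17. Of 15 creatine kinase, adenylate and AMPK genes 11 lay above 0, median 0.055. Ak3, a mitochondrial adenylate kinase, had differences of 0.81, 0.18, 0.66, 0.98 and -0.15 in horses 1 to 5. Adsl, an enzyme of AMP synthesis, had a mean of 0.20 ± 0.12 over 4 horses. Muscle creatine kinase, Ckm, had differences of 0.38, 0.52, -0.071, 4.39 and -0.39 in horses 1 to 5, and horse 4 set its mean of 0.96 ± 0.68.

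Of 19 genes of fatty acid uptake and oxidation 7 lay above 0, median -0.046, and 2 of these at an unadjusted p under 0.05, 10.5% against 1.86% of all features. Leaving out 1 horse in turn gave 0 to 2 above 0 at that p, with 0 of 20 without horse 5. Of all features then tested, 114 of 10776 (without horse 3) to 363 of 11997 (without horse 4) lay above 0 at that p. List members above 0 at that p were 0 of 19 both with no replicate block and with the Cy3 array turned. All features gave 81 and 125 of 10063 in those settings. Pnpla2, the lipase that starts triglyceride breakdown, had differences of -0.22, 0.56, 0.54, 1.75 and 1.12 in horses 1 to 5, mean 0.75 ± 0.27. Slc25a20, the mitochondrial carnitine carrier, had differences of 0.32, -0.035, 0.25, 0.27 and 0.74 in horses 1 to 5. Horse 1 was below 0 for the first gene and horse 2 for the second. In the tricarboxylic acid cycle and carrier list 11 of 23 lay above 0, median -0.011. Idh2, mitochondrial isocitrate dehydrogenase, was above 0 in every horse with a mean of 0.31 ± 0.13, and Vdac3, an outer membrane channel, below 0 in every horse with -0.38 ± 0.17. Of 58 respiratory chain and ATP synthase genes on the array 43 were tested, and 17 lay above 0, median -0.024. The list median was -0.094, 0.090, 0.20, -0.85 and 0.24 in horses 1 to 5, and without horse 4 it was 0.094. In all, 3 of 39 members with 5 differences were above 0 in every horse, 7.69% against 3.38%. These were Ndufs3 and Ndufa11 of complex I and Uqcrc1 of complex III, with means of 1.14 ± 0.57, 0.18 ± 0.094 and 0.63 ± 0.32. For Ndufs3 and Uqcrc1 the value in horse 4 was 4.05 and 2.25, and the others lay between 0.13 and 0.59. The complex I gene Ndufb7 had a mean of 0.65 ± 0.25, Uqcrb of complex III -0.44 ± 0.22 and Cox8a of complex IV -0.75 ± 0.44.

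**Figure D4:**
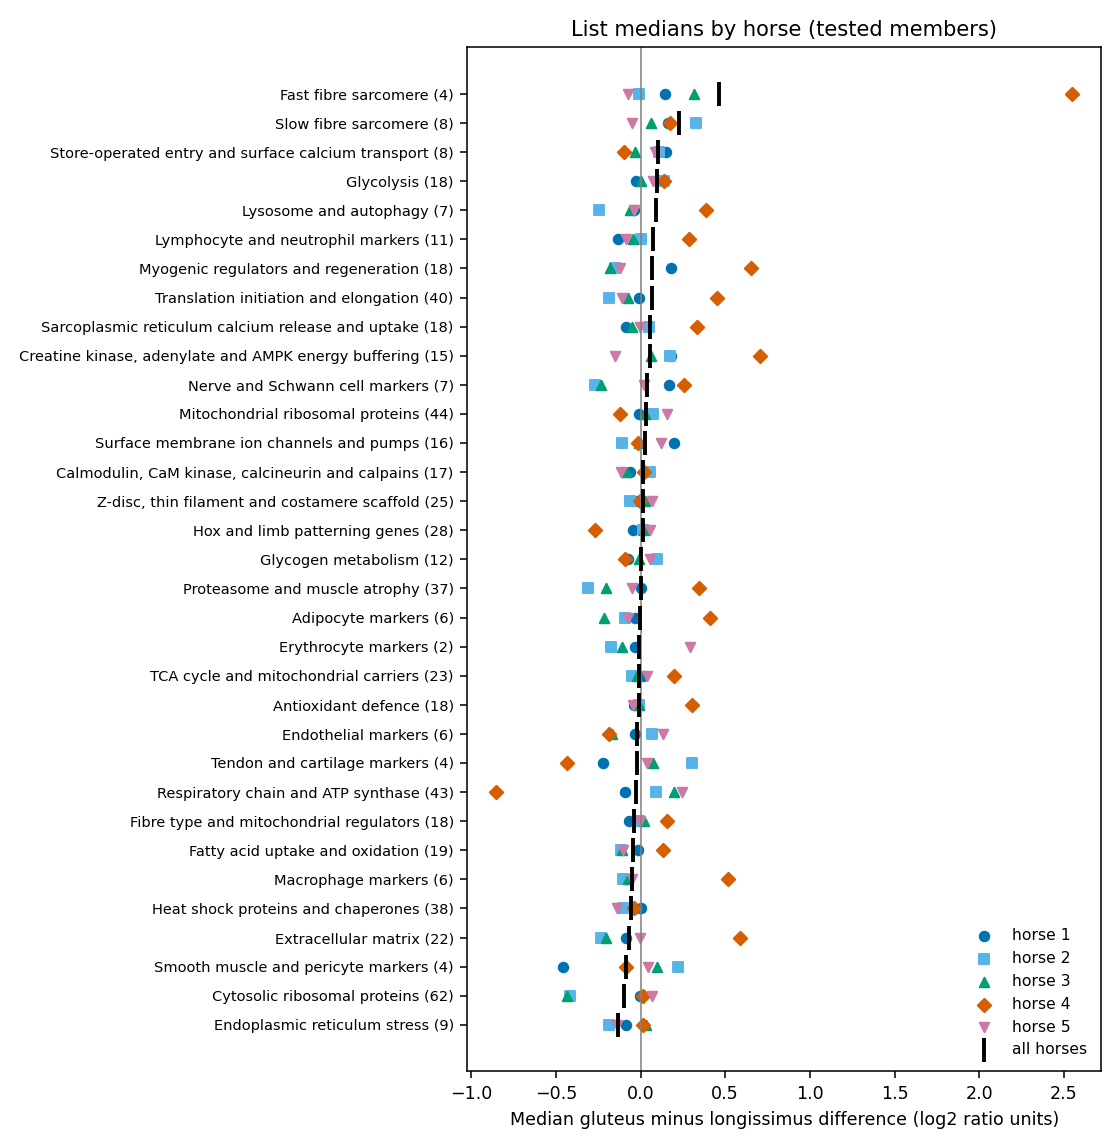
Median gluteus minus longissimus difference (x axis, log2 ratio units) of the tested members of each of 33 gene lists (y axis, number of members in brackets); symbols are the 5 horses and black ticks the median over the members' means. Horse 4 lies far from the other horses in many lists, at 2.55 for fast fibre genes and -0.85 for the respiratory chain, while horses 2 and 3 lie at -0.41 and -0.43 for cytosolic ribosomal proteins.

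Genes of protein breakdown and folding had members on both sides of 0. Of 37 proteasome and atrophy genes 18 lay below 0, 3 of them at an unadjusted p under 0.05, 8.11% against 2.26%, with a median of 0.0014. The regulatory particle subunits Psmd12 and Psmd6 were below 0 in every horse with means of -0.35 ± 0.11 and -0.46 ± 0.15. Without horse 2 the genes below 0 at that p were 1 of 37, 2.7% against 1.11%, and without horse 4 they were 6 of 41, 14.6% against 3.2%. They were 0 of 37 both with no replicate block and with the Cy3 array turned. Rnf11, which acts with ubiquitin ligases, had differences of -0.79, -0.35, -0.58, -1.52 and -0.69 in horses 1 to 5, mean -0.79 ± 0.17. Rad23b, which carries ubiquitinated proteins to the proteasome and takes part in DNA repair, had differences of -0.30, -0.53, -0.29, -0.35 and -0.40 in horses 1 to 5, mean -0.37 ± 0.091. Of 38 heat shock and chaperone genes 17 lay above 0, median -0.054. The Hsp40 cochaperones Dnajc4 and Dnajb6 had means of 0.52 ± 0.13 and -0.37 ± 0.11 over 4 horses. Of 9 endoplasmic reticulum stress genes 3 lay above 0, median -0.14, and the disulfide isomerase Pdia3 had a mean of -0.40 ± 0.15 over 4 horses. That median was 0.013 without horse 2, -0.033 without horse 4, -0.23 without horse 5, 0.032 on Cy5 arrays, 0.010 with the Cy3 array turned and 0.155 in the sparsely measured horses. Among 18 antioxidant genes 8 lay above 0, median -0.012, with the peroxiredoxins Prdx4 at -0.33 ± 0.12 (4 horses) and Prdx2 at 0.20 ± 0.10. Of 7 lysosome and autophagy genes 4 lay above 0, median 0.089, and Atg3, which lipidates the autophagosome membrane protein, had a mean of -0.42 ± 0.13.

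Regulators, patterning genes and membrane channels gave 0 members at an unadjusted p under 0.05. Of all features 1.86% lay above and 2.26% below 0 at that p, and lists of 16 to 28 members can hold 0 at such shares. Of 18 fibre type and mitochondrial regulators 8 lay above 0, median -0.038. The nuclear receptor corepressor Nrip1 had a mean of 0.35 ± 0.17 and Tbx15, a factor of glycolytic fibres in mouse, -0.14 ± 0.092. Among 18 myogenic and regeneration genes 11 lay above 0, median 0.070. The laminin receptor Itga7 had a mean of -0.40 ± 0.16 over 4 horses and Dlk1, which affects muscle growth, 0.17 ± 0.11. Hox and limb genes, which keep a record of body position and would cancel if RER horses and controls shared it, numbered 28, with 15 above 0 and a median of 0.012. Hoxd1 had differences of -1.36, -0.20, -0.0017, -2.08 and 0.36 in horses 1 to 5 and Hoxa6 of -0.091, -0.31, -0.32, -1.03 and 0.18 in horses 1 to 5. Of 16 channels and pumps of the surface membrane 9 lay above 0, median 0.027. That median was -0.124 with the Cy3 array turned and -0.11 in the densely measured horses. Atp1b1, a sodium pump subunit, had a mean of -0.35 ± 0.15 and the potassium channel gene Kcna1 0.26 ± 0.11, both over 4 horses.

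Markers of cells other than muscle fibres had list medians from -0.086 to 0.075 over all horses, but horses differed. The median was -0.068 for 22 extracellular matrix genes, -0.050 for 6 macrophage markers, 0.075 for 11 lymphocyte and neutrophil markers and -0.020 for 6 endothelial markers. It was -0.086 for 4 smooth muscle markers, -0.0027 for 6 adipocyte markers, 0.037 for 7 nerve markers, -0.0074 for 2 erythrocyte markers and -0.021 for 4 tendon and cartilage markers. The extracellular matrix median was -0.084, -0.23, -0.20, 0.59 and -0.0045 in horses 1 to 5, and without horse 4, 21 of the 25 members then tested lay below 0, with a median of -0.10. The smooth muscle median was -0.46, 0.22, 0.10, -0.083 and 0.044 in horses 1 to 5, and 0.21 over all horses with the Cy3 array turned. The macrophage adaptor gene Tyrobp had gluteus ratios of -0.17, -1.38, -0.998 and 0.070 in horses 1, 2, 3 and 5, against longissimus ratios of 0.44, -0.22, 0.045 and 0.42 in horses 1, 2, 3 and 5. Horses 2 and 3 were lowest in gluteus, and the mean difference was -0.79 ± 0.17 (SE, n = 4 horses), adjusted p = 0.943 (limma). Of the other 5 macrophage markers 2 lay above 0. Tyrobp was the 1 of 6 markers below 0 at an unadjusted p under 0.05 (limma), 16.7% against 2.26% of all features. With the lowest deposited values and exact zeros treated as missing, only 4 macrophage markers were tested. Of these 1 lay below 0, and 0 did so at that p, against 2.1% of all features then tested. The basement membrane gene Col4a1 had a mean of -0.43 ± 0.16 over 4 horses, without horse 4, and Lamc1 one of -0.28 ± 0.16 over 5. The leading member was Cd79b of B cells at 0.32 ± 0.29, Vwf of endothelium at -0.17 ± 0.12 (4 horses), Smtn of smooth muscle at -0.16 ± 0.13 and Lpl of adipocytes at -0.52 ± 0.27. Pmp22 of Schwann cells had a mean of -0.18 ± 0.13, Alas2 of red cell precursors -0.14 ± 0.11 (4 horses) and Col11a1 of cartilage -0.29 ± 0.22.

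The remaining genes named by the rule have varied roles. Above 0 in every horse, Anapc7, a subunit of the anaphase-promoting complex, had gluteus ratios of 0.20, 0.27, 0.57, -0.72 and 0.077, against longissimus ratios of -0.26, -0.48, -0.028, -1.75 and -0.38 in horses 1 to 5. Horse 4 was lowest in both muscles, and the mean difference was 0.66 ± 0.12 (SE, n = 5 horses), a ratio of 1.58, adjusted p = 0.943 (limma). B3galt2, a galactosyltransferase, had differences of 0.76, 0.30, 0.39, 0.88 and 0.47 in horses 1 to 5, and Sh3pxd2b, an adaptor of podosomes, 0.41, 0.26, 0.47, 0.82 and 0.55 in horses 1 to 5. Pnma2 had differences of 1.18, 0.61, 1.78, 0.57 and 0.36 in horses 1 to 5, a mean of 0.90 ± 0.22, with horses 1 and 3 farthest from 0. Lmf1, a maturation factor of lipoprotein lipase, had a mean of 0.53 ± 0.14, with horse 5 at 0.027. Capsl had a mean of 0.47 ± 0.10 and Dpm1, a subunit of dolichol-phosphate mannose synthase, 0.34 ± 0.092. Coro6, a coronin, had a mean of 0.36 ± 0.10, from 1.04 on Cy3 and -0.32 on Cy5 arrays. Below 0, Tatdn1 had a mean of -0.47 ± 0.12. Of the 20 genes in both directions, 19 had the same sign in the Cy3 and Cy5 means, with Coro6 as the exception, beside 51.3% of all tested features. They were chosen on the same arrays, so this count is a description. Of the 10 genes above 0, 10 had a mean longissimus ratio below 0 and 6 a mean gluteus ratio above it. Of the 10 below 0, 10 had a mean gluteus ratio below 0 and 10 a mean longissimus ratio above it, and choosing genes for one-signed differences favours such counts.

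Opposite signs in both muscles of all 5 horses were found for 1 of 6275 features with gluteus above 0 and longissimus below, 0.0159%, and for 0% in the other order. That feature was Csn2, annotated as beta-casein, a milk protein. Its gluteus ratios were 0.0038, 0.13, 0.070, 0.18 and 0.044 and its longissimus ratios -0.19, -0.0040, -0.016, -0.011 and -0.072 in horses 1 to 5, several of them close to 0. The mean difference was 0.14 ± 0.086 (SE, n = 5 horses), adjusted p = 0.943 (limma), and it was 0.40 on Cy3 but -0.12 on Cy5 arrays.

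Means beyond 1 in either direction were found for 13 features, and several of them rested on 1 or 2 horses. Irs4, an insulin receptor substrate, had differences of -0.21, 2.08, 2.28, 0.43 and 1.49 in horses 1 to 5, mean 1.21 ± 0.38. Ebna1bp2, a factor of ribosome assembly, had differences of -1.36, -0.64, 0.20, -1.42 and -2.17 in horses 1 to 5, mean -1.08 ± 0.32. For each gene 1 horse had the other sign.

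Horse 4 differed from the other 4 horses in the width of its differences. The standard deviation over tested features was 0.962 in horse 4 and 0.395, 0.366, 0.381 and 0.425 in horses 1, 2, 3 and 5. Differences beyond 1 made up 22.5% of 6357 measured features in horse 4 and between 1.66% and 2.4% elsewhere. Of 3788 tested features with 4 differences 3706 lacked horse 4, as did every gene named here over 4 horses. Their means and standard errors leave out this widest horse. The share with the same sign on Cy3 and Cy5 arrays was 84.4% in horse 4, 72.3% in horse 5 and 40.1% to 50.3% in horses 1 to 3. Beyond 3 lay 82 features in horse 4, 81 with the same sign in both dyes. They were chosen by the mean of both dyes, which favours one sign, so that count is a description. For 68 of the 82 the longissimus ratio was the one farther from 0. The ratios of horse 4 had a standard deviation of 0.894 in longissimus and 0.499 in gluteus. Named genes show this: in longissimus of horse 4 the ratio was -5.45 for Tnnc2, -4.93 for the muscle elongation factor Eef1a2, -4.88 for Casq1, -4.78 for Ckm and -4.56 for Ndufs3. In its gluteus those ratios were -0.45, 0.87, -0.49, -0.39 and -0.51. Atp2a1 lay above 0 in that longissimus, at 0.34, as did Atp2a2 at 1.86. Eef1a2 was 5.80 in horse 4 and between -1.30 and -0.69 in the others. In the same horse the list median was 0.59 for extracellular matrix, 0.52 for macrophage markers and 0.65 for myogenic and regeneration genes, and their part in these values was not tested. Leaving out horse 4 turned the median from above to below 0 in 8 of the 33 lists, among them calcium release and uptake, proteasome and translation, and from below to above 0 in 3, among them the respiratory chain. Without horse 4, 0 features passed the adjusted threshold and 747 of 11997 had an unadjusted p under 0.05.

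**Figure D5:**
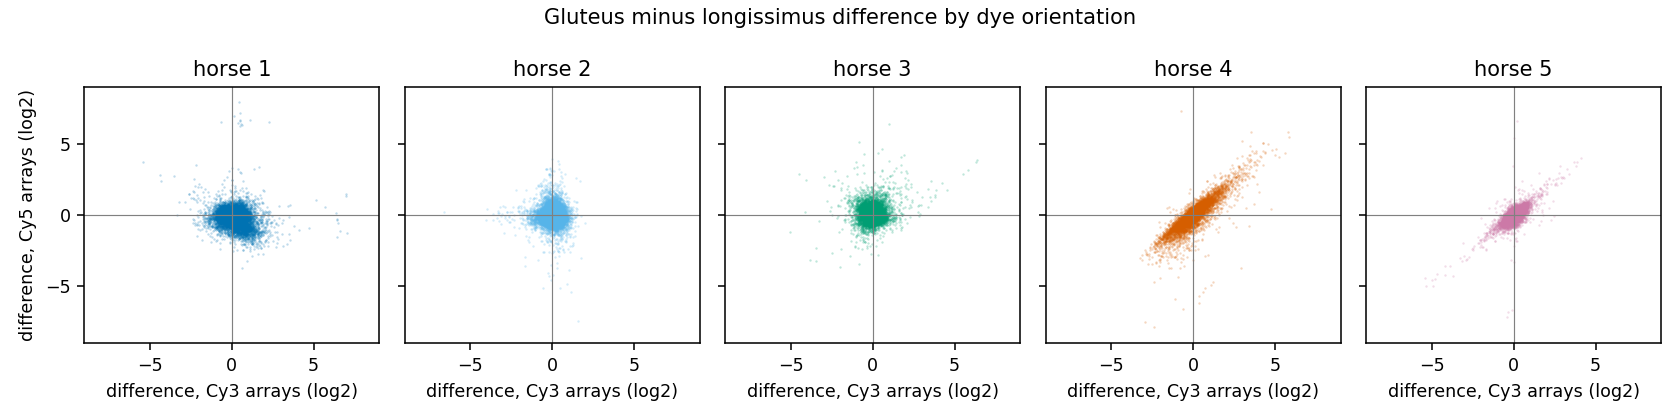
Difference on arrays with RER RNA in Cy5 (y axis, log2) against that with RER RNA in Cy3 (x axis, log2), 1 point a tested feature and 1 panel a horse. Points follow a rising diagonal in horses 4 and 5, with Pearson correlations of 0.853 and 0.704, and form a cloud without one in horses 1 to 3, at -0.266, -0.0636 and 0.0932.

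Probes of one gene did not follow each other. For 233 symbols with exactly 2 tested probes, the mean differences of both probes had the same sign in 51.5% and a Pearson correlation of 0.0153 across genes, which are not independent replicates. Probe annotation uses mouse-style symbols on horse RNA, and the genes named here carry those symbols.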

How the data were processed

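RNA of 5 RER horses was compared with muscle-specific control pools on 20 two-colour oligonucleotide arrays, 2 dye-swapped arrays for each horse and muscle. The authors deposited log2 ratios in a value table; the background correction and normalization behind them are not given in the sources used here, and per the labels' protocols dye-swapped results were averaged. Array number limits the precision. Every array first had its own median subtracted. For each probe, the dye-swapped arrays were averaged into 1 value per muscle of each horse, missing unless both were measured. Probes of one symbol were then averaged within each muscle (of 24493 probes 13692 had 1 symbol, 0 several and 10801 none). Last, longissimus was subtracted from gluteus within the horse. For a gene with several probes, both muscles of a horse can therefore rest on different sets of probes. Idh2 had 5 differences, while its probes had paired differences in only 2 and 3 horses. The pairing comes from the labels, which give the same animal; deviations of both muscles of a horse correlated at 0.619, 0.34, -0.0935, 0.0197 and -0.0328. Features with differences in at least 4 horses were tested with limma 3.58.1 (statmod 1.5.0, R 4.3.3), an intercept-only fit moderated by eBayes, with Benjamini-Hochberg adjustment. Standard errors and intervals of differences are the moderated ones of that fit. The procedure was also run on simulated independent noise with an equal spread in every horse. Horse 4 was wider than the others here, so that run does not check the procedure for these differences. The labels name separate horses, and both muscles of a horse are its only samples.

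The text names up to 10 symbols in each direction by smallest p with one sign in all 5 horses, the members of each of 33 lists with the smallest p, and symbols with opposite signs in both muscles. The rule allowed up to 3 members a list; fewer are named for some, for length. A further 22 genes were chosen after their values were seen: Ryr1, Atp2a1, Casq1, Atp2a2, Capn3, Ckm, Actc1, Cox8a, Uqcrc1, Ndufa11, Myl3, Rps27a, Rps25, Rpl23a, Rps24, Rplp1, Eif4g2, Eif3f, Eif5b, Eef1a2, Ebna1bp2 and Irs4. The lists and tests were chosen with earlier results of these data known. Alternatives changed the pairing, centring, dye orientation, filters, moderation and horses.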

Additional observations from a re-analysis of the deposited data

Results flagged for a closer look

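For 5 horses, a value was set apart when its gap to the nearest other horse exceeded 0.71 of the whole range, Dixon's limit, with a higher limit where 4 horses were measured. Chance flags about 1 in 20 such groups only where all values have an equal spread. Here the standard deviation was 0.962 in horse 4 and 0.366 to 0.425 in the others, so that rate does not apply. Of 102 named genes 13 exceeded Dixon's limit, and several had been named because of 1 wide horse. The share over all tested features was not computed, so this count is a description. In horse 4 the difference was 5.00 for Tnnc2, 5.80 for Eef1a2, 4.40 for Casq1, 4.39 for Ckm and 4.39 for Rplp1. It was 4.05 for Ndufs3, 3.11 for Pfkfb1, 2.25 for Uqcrc1, 1.74 for Actn3 and 0.735 for Tnni1 in that horse. Below 0 in horse 4 were Lpl at -1.86 and Col11a1 at -1.30. Camk2d stood apart in horse 1, at -1.57.

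Of the 33 lists 5 had a median that stood apart in horse 4. These were fast fibre sarcomere at 2.55, extracellular matrix at 0.588, macrophage markers at 0.516, translation at 0.451 and antioxidant defence at 0.301.

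Csn2 had ratios above 0 in gluteus and below 0 in longissimus of all 5 horses, with a mean difference of 0.144. Its difference did not pass the limma test, and no other test of the opposite signs was made.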

How the results depend on the processing

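No alternative moved a feature past the adjusted threshold, so the count of 0 was the same in each, with lowest adjusted p-values of limma between 0.434 and 1. The number at an unadjusted p under 0.05 was 414 and ranged from 16 (trend and robust moderation) to 1087 (horse weights, chosen after seeing the data). It was 176 with no replicate block, 241 with turned Cy3 arrays, 798 on Cy3 arrays, 768 after quantile normalization, 205 with all 5 horses required, 94 in the sparsely and 648 in the densely measured horses, and 270 to 747 when 1 horse was left out. With no replicate block, which ignores the pairing, 0 features passed and Itga7 changed sign to 0.00963. Horse 3 is the only one with arrays of both densities, so array density as a block leaves the other 4 horses, with 273 features.

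Signs of named genes changed under some settings. With the Cy3 array turned in pairs that correlate below 0, the difference was -0.154 for Capsl, -0.037 for Lmf1, -0.295 for Coro6, -0.0932 for Dpm1, -0.158 for Csn2, -0.161 for Ugp2, -0.217 for Actn3, -0.209 for Tnni1, -0.184 for Myoz3, -0.18 for Adsl and -0.249 for Kcna1. It was 0.0975 for Acta1, 0.207 for Itga7, 0.104 for Pdia3, 0.118 for Tyrobp, 0.159 for Vwf and 0.0297 for Rpl23a. On Cy5 arrays it was -0.319 for Coro6, -0.117 for Csn2, -0.0283 for Pfkfb2, 0.119 for Myh7, -0.047 for Tnni1, 0.592 for Acta1, 0.0124 for Atp1b1, 0.166 for Pdia3 and 0.0947 for Vwf. On Cy3 arrays it was 0.202 for Atp2a1 and -0.0379 for Myl3. Quantile normalization gave -0.0249 for Tnnt3, -0.131 for Actn3 and -0.191 for Eef1a2. The densely measured horses gave -0.246 for Tnnt3, -0.0914 for Actn3, -0.222 for Casq1, 0.00884 for Atp2a2, -0.0495 for Rplp1 and -0.801 for Eef1a2, and the sparsely measured ones 0.0173 for Smtn. Horse weights gave -0.0162 for Cd79b, -0.169 for Ryr1 and -0.795 for Eef1a2. Leaving out 1 horse in turn moved Casq1 between -0.127 and 1.06, Rplp1 between -0.0223 and 1.15 and Eef1a2 between -0.897 and 0.878. List medians moved as well. In the sparsely measured horses the median was 0.263 for macrophage markers, 0.143 for endothelial markers and 0.389 for sarcoplasmic reticulum calcium release and uptake. For the tricarboxylic acid cycle list it was -0.142 with the Cy3 array turned. On Cy5 arrays it was 0.141 for scaffold genes and 0.0918 for fibre type and mitochondrial regulators. The cause of these changes was not tested.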
